A study of Homo sapiens with 6 samples.

Results

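Ribosome biogenesis is represented here by 39 genes: the transcription factor MYC, nucleolar proteins, subunits and initiation factors of RNA polymerase I, the proteins of the box C/D small nucleolar ribonucleoproteins (snoRNPs), and assembly factors of the small and the large ribosomal subunit. The members were listed by name and known role, with earlier results of these data in view. Each was read by the probe set that carried its symbol alone and had the highest mean over the 6 arrays. By that rule 37 of the 39 were measured, among 18132 genes measured in the series. UTP15, a small subunit factor, was too dim for the test, so 36 members stand among the 13407 genes tested. GNL3, which encodes nucleostemin, and EBNA1BP2, a large subunit factor, had no probe set with their symbol alone and are not analysed here.

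The cells were SHSY5Y (SH-SY5Y), an established neuroblastoma line of human origin. The control group held 3 arrays of untreated cells. The manganese group held 3 arrays of cells given 100 µM manganese for 24 h, a dose described as the median lethal concentration divided by 5. Both groups grew in a mix of MEM and F12 with 10% fetal bovine serum added. Replicates are labelled as biological, without word on whether cultures were started separately, so p-values measure the spread between these arrays, part of which may be technical. SHSY5Y is a dividing tumour line, which limits it as a model of a neuron.

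Ribosome production starts in the nucleolus, where RNA polymerase I copies the repeated rDNA genes into one long precursor. The factor UBTF, the SL1 complex (TBP with the TAF1 subunits) and RRN3 bring the polymerase to the rDNA promoter. The precursor is then folded, methylated, cut and packed with ribosomal proteins by a chain of assembly factors that leads to the small and the large subunit. MYC is known to raise rDNA transcription and the genes of many of these factors, in part by binding the E-box CACGTG near their start sites, and, with its relative MYCN, it is a known growth driver of neuroblastoma.

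The promoters of these genes are shown because that E-box is the pattern MYC is known to bind. Promoters, taken as the 250 bases before to the 50 bases after the transcription start, came from RefSeq (GRCh38.p14), and 31 of the 39 members had an entry, with 41 promoters between them. The motif CACGTG, which reads the same on both strands, was present in 14 of the 31 (45.2%) and within 50 bases of the start in all 14. Among all 27305 genes with a promoter entry 8.77% held it, and 3.51% held it that close to the start. Among the 10834 genes that were both tested on the arrays and had an entry, the shares were 12% and 4.96%. A match is a string of letters and not an observed binding site, and nothing in these arrays measures binding. The 12 of the 14 genes that were tested are printed below, with the E-box in capitals and up to 12 bases on either side, 5′ to 3′ on the strand of the gene.

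DDX21: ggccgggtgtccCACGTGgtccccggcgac
FBL: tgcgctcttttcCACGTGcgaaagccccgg
RRP9: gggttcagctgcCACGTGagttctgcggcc
UTP4: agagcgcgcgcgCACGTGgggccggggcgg
UTP20: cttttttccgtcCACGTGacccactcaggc
WDR43: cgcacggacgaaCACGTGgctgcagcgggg
NOP14: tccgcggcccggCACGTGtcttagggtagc
NAT10: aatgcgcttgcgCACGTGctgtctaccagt
BYSL: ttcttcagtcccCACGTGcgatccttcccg
NOP2: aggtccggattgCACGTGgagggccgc
PES1: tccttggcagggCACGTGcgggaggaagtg
MRTO4: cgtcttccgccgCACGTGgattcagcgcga

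The first base of the E-box lay between position -31, in DDX21, and position 36, in NOP2, where the promoter entry ends inside the window. The start base is position 1 in this count, and there is no position 0. The windows of the genes described in full are chr19:39846356-39846385 on the minus strand for FBL, chr11:34105602-34105631 on the plus strand for NAT10, chr12:6568242-6568268 on the minus strand for NOP2, chr22:30591880-30591909 on the minus strand for PES1 and chr1:19251807-19251836 on the plus strand for MRTO4. By role, the E-box was found in 6 of the 8 small subunit factors with an entry, 4 of 7 large subunit factors, 2 of 3 box C/D proteins and 2 of 4 nucleolar proteins. It was found in 0 of 4 polymerase I subunits and 0 of 5 initiation factors. A further 3 motifs were searched on both strands, none of which contains the E-box letters. The core bound by ETS factors, CCGGAAG, was in 13 of the 31 members (41.9%), 12.2% of all genes with an entry and 19.8% of tested genes with one. AAGATGGCG, the YY1 motif, was in 1 member (3.23%, against 2.14% of all and 4.13% of tested genes), and GCATGCGC, the NRF1 motif, was in 1 member (3.23%, against 3.68% and 5.58%). The entries for MYC, TCOF1, POLR1E, NOP58, RRP12, BOP1, RRP1B and RRS1 were missing.

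The arrays were alike in scale and differed in their controls. Across tested genes, which are not independent replicates, pairs of arrays correlated at 0.967 or more, and the lowest pair joined control 1 with manganese 1. The poly(A) spike-in probe sets, 12 in number, averaged 6.04, 7.59 and 5.83 on control 1, 2 and 3 and between 7.60 and 7.75 on the manganese arrays, so control 2 alone shared the spike-in level of the treated group. Control 1 gave the highest of the 3 control values for 21 of the 36 members and the lowest for 10, and over all tested genes it was highest for 5029 and lowest for 6226. For these reasons each member is also compared with each control array. The 9 measured noradrenergic markers, all above the filter, averaged 11.47 to 11.54 in the controls and 11.32 to 11.37 in manganese. Of 6 mesenchymal markers 4 passed the filter, with list means of 4.80 to 4.96 and 4.82 to 4.92. Of 11 measured blood, endothelial, epithelial and glial markers 7 passed, with list means of 4.54 to 4.67 in the controls and 4.71 to 4.74 in manganese. PTPRC, CD14, EPCAM and ALB lay below the filter, while CD3E, PECAM1, VWF, KRT5, KRT18, GFAP and MBP lay above it. The part of these shifts in the results below was not tested.

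Most of the ribosome biogenesis genes lay lower in manganese, by small amounts that did not reach the threshold. The mean was lower for 25 of the 36 members and higher for 11, a share of 69.4% lower against 45.9% of all tested genes. The median log2 difference, manganese minus control, was -0.10, beside 0.02 over all genes, and single members ranged from -0.84 for WDR12 to 0.29 for PES1. In limma with Benjamini-Hochberg adjustment over the 13407 genes, 0 members passed an adjusted p of 0.05, which 19 genes (0.142%) passed in all. At an unadjusted p under 0.05, 8 members were lower and 0 higher, where 6.85% of all genes were lower and 5.97% higher. The 3 manganese arrays all lay below the 3 control arrays for 13 of the 36 members and all above them for 2, against 9.26% and 10.5% of all genes. With estimated array weights 12 members and 3945 of all genes were called, but that estimate did not converge.

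**Figure D1:**
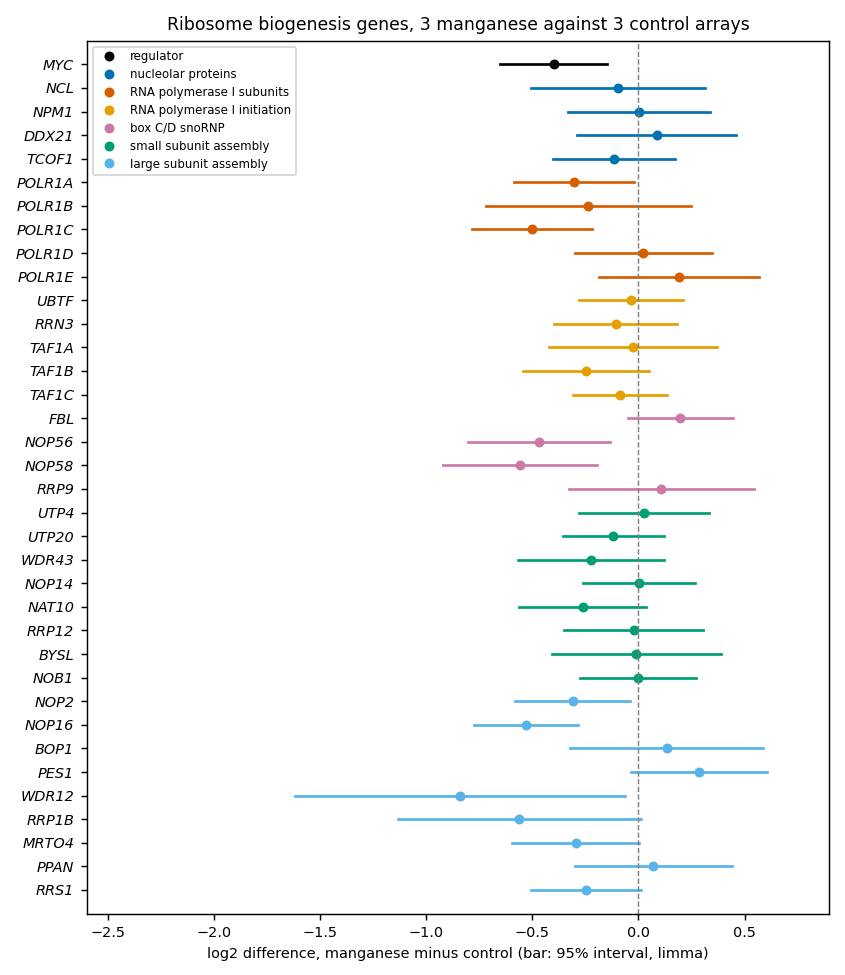
Log2 difference, manganese minus control, of the 36 tested members, grouped by role (colour), with 95% intervals from limma over 3 arrays a group. Most points lie left of 0, and the widest interval is that of WDR12.

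The arrays were also set side by side through the members' median deviation from their 6-array means. It was 0.16, -0.00 and 0.04 on control 1, 2 and 3 and -0.04, -0.06 and -0.10 on the manganese arrays, so the treated arrays lay below all controls, with control 2 nearest to them. For single members, the median SD was 0.20 among the controls and 0.13 among the manganese arrays. Taken against each control array, the median difference over the members was -0.21 against control 1 and -0.10 against both control 2 and control 3. The manganese mean was lower than control 1 for 27 members, than control 2 for 23 and than control 3 for 24. It was lower than every control for 16 members and higher than every control for 2. The bulk arrays cannot tell less RNA per cell from fewer cells that carry it, and RMA removes a shift shared by most genes, so each difference is relative to the rest of the transcriptome.

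**Figure D2:**
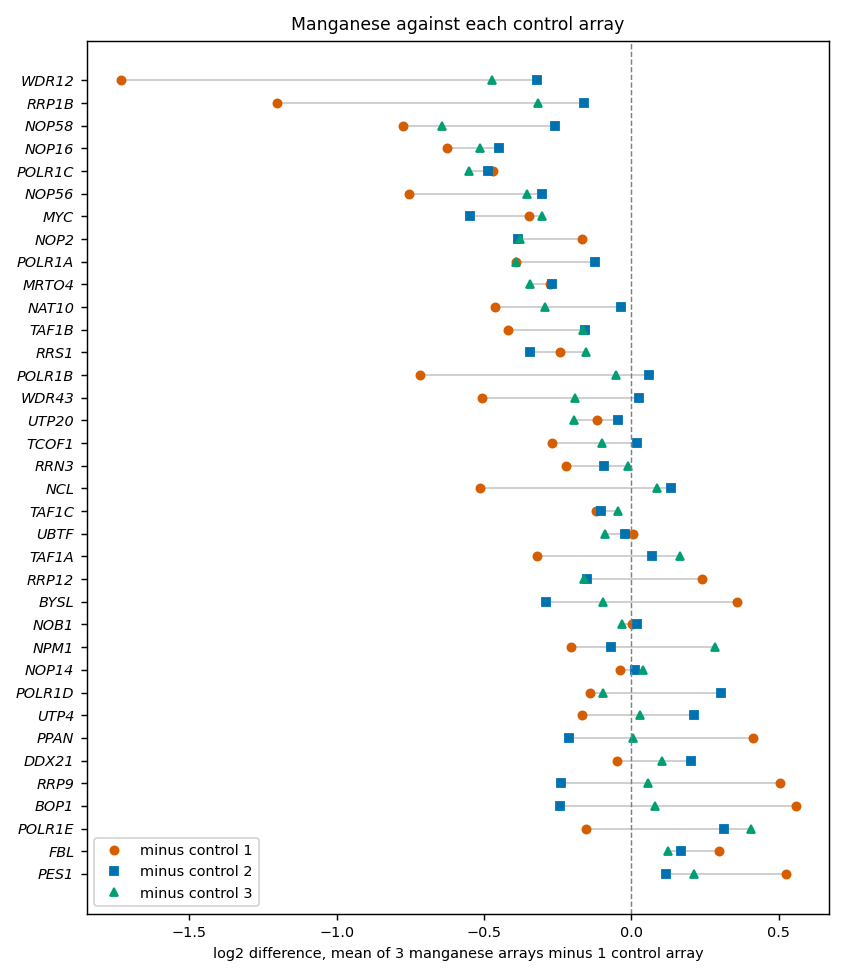
Mean of the 3 manganese arrays minus each control array, for the 36 members, in order of their difference against all controls. POLR1C and NOP16 have 3 points close together below 0, while WDR12 and RRP1B have a point far to the left for control 1.

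MYC, the regulator of the set, was lower in manganese. Its level was 11.11, 11.31 and 11.07 on the controls and 10.79, 10.76 and 10.75 on the manganese arrays, log2 RMA units. The groups did not overlap, and the manganese arrays were tighter than the controls. The difference was -0.40 (SE 0.11, 95% interval -0.65 to -0.15), from 11.17 ± 0.13 to 10.77 ± 0.02 (SD, n = 3) and a fold of 1.32. The limma adjusted p was 0.251. Against control 1, 2 and 3 the difference was -0.35, -0.55 and -0.30, so it was largest against control 2. MYC was read by 1 probe set.

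The subunits of RNA polymerase I went different ways. POLR1C, which the enzyme shares with RNA polymerase III, showed the clearest difference among them. It stood at 8.38, 8.40 and 8.47 on the controls and 8.07, 7.96 and 7.71 in manganese. All treated arrays lay below all controls, and the controls differed from each other by at most 0.08. The difference was -0.50 (SE 0.12, 95% interval -0.78 to -0.22, fold 1.42, limma adjusted p 0.204), and it was -0.47, -0.49 and -0.55 against the 3 controls in turn. Its other probe set above the filter gave -0.55, also without overlap.

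POLR1A, the largest subunit and part of the catalytic centre, stood at 7.94, 7.67 and 7.94 on the controls and 7.63, 7.42 and 7.58 in manganese. The groups were separate, but manganese 1 and control 2 nearly touched. The difference was -0.30 (SE 0.12, limma adjusted p 0.368), from -0.39 against control 1 and control 3 to -0.12 against control 2.

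POLR1B, the other large catalytic subunit, stood at 8.81, 8.03 and 8.15 on the controls and 7.99, 7.99 and 8.30 in manganese. These groups overlapped, with control 1 high and manganese 3 above 2 controls. The difference was -0.24 (SE 0.21, limma adjusted p 0.648), made of -0.72 against control 1, 0.06 against control 2 and -0.05 against control 3. Without control 1 it was 0.00. Its probe sets disagreed on overlap: the other 5 of its 6 all had separate groups, lower in manganese, and the 6 ranged from -0.67 to -0.24. On each of the 6, control 1 was the highest array.

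POLR1D, which pairs with POLR1C, was close to level. It stood at 10.45, 10.00 and 10.40 on the controls and 10.33, 10.25 and 10.34 in manganese, a difference of 0.02 (95% interval -0.30 to 0.34, limma adjusted p 0.957). Control 2 was the low array there. POLR1E, an enzyme-specific subunit that acts in initiation, was at 0.19 with overlapping groups, at -0.15 against control 1 and 0.32 and 0.41 against the others.

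The 5 initiation factors had negative differences on their brightest probe sets, from -0.25 to -0.03. Groups were separate and lower for 1 of them, beside 9.26% of all tested genes. UBTF, which holds rDNA chromatin open, stood at 7.79, 7.82 and 7.89 on the controls and 7.77, 7.92 and 7.71 in manganese. The treated arrays lay on both sides of the controls. The difference was -0.03 (95% interval -0.28 to 0.21, limma adjusted p 0.916), and its 4 probe sets ranged from -0.23 to 0.16. On the probe set at 0.16 all treated arrays lay above all controls.

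RRN3, which links the polymerase to SL1 and is a known target of growth signals, was dim. It stood at 4.87, 4.74 and 4.66 on the controls and 4.79, 4.45 and 4.70 in manganese, against an array-wide 40th percentile of 4.37 to 4.40. The groups overlapped, and the difference was -0.11 (95% interval -0.40 to 0.18, limma adjusted p 0.741). It was -0.010 without manganese 2, the lowest array, and -0.051 without control 1, the highest.

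TAF1C, a subunit of SL1, was lower on every treated array by a very small amount. It stood at 7.47, 7.45 and 7.40 on the controls and 7.36, 7.34 and 7.36 in manganese, a difference of -0.09 (limma adjusted p 0.719). Its 4 probe sets ranged from -0.09 to 0.09, and 1 of them, the brightest, had separate groups. The others were positive, at 0.09, 0.02 and 0.01. The other SL1 subunits overlapped on their brightest probe sets, with TAF1A at -0.03 and TAF1B at -0.25 (limma adjusted p 0.453). The other passing probe set of TAF1B gave -0.23 with separate groups, and the 4 of TAF1A ranged from -0.36 to 0.15.

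The nucleolar proteins NCL, NPM1, DDX21 and TCOF1 all overlapped between the groups on their brightest probe sets. NCL, nucleolin, an abundant RNA-binding protein of the nucleolus, stood at 11.52, 10.87 and 10.92 on the controls and 11.01, 10.92 and 11.08 in manganese. Control 1 was the high array, and the treated arrays sat above the other controls. The difference was -0.10 (95% interval -0.51 to 0.31, limma adjusted p 0.850), and it turned from -0.51 against control 1 to 0.13 against control 2 and 0.09 against control 3. Without control 1 it was 0.11.

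NPM1, nucleophosmin, a chaperone that takes part in large subunit export and organizes the nucleolus, stood at 12.13, 11.997 and 11.64 on the controls and 11.87, 11.88 and 12.04 in manganese. The treated arrays fell between the controls. The difference was 0.00 (95% interval -0.33 to 0.34, limma adjusted p 0.996), against -0.21, -0.07 and 0.28 for the single controls. Its 6 probe sets ranged from -0.28 to 0.04. DDX21, an RNA helicase of rRNA transcription and processing, was at 0.09 on its brightest probe set and at -0.47 and -0.27 on the others, the last with separate groups, lower in manganese. TCOF1, the nucleolar protein treacle, was at -0.12, and its 5 probe sets ranged from -0.12 to 0.23.

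The box C/D snoRNP, the particle that methylates rRNA, showed opposite differences among its core proteins. FBL, fibrillarin, the methyltransferase itself, was higher in manganese. It stood at 12.73, 12.86 and 12.90 on the controls and 13.13, 13.01 and 12.96 in manganese. All treated arrays lay above all controls, with manganese 3 close to control 3. The difference was 0.20 (SE 0.11, 95% interval -0.05 to 0.45, limma adjusted p 0.467), and it was 0.30, 0.17 and 0.13 against the 3 controls.

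NOP56, a scaffold of the same particle, was lower. It stood at 10.83, 10.37 and 10.43 on the controls and 10.03, 10.20 and 9.99 in manganese, with separate groups and control 1 highest. The difference was -0.47 (SE 0.15, 95% interval -0.81 to -0.13, fold 1.39, limma adjusted p 0.292), and it was -0.75 against control 1 and -0.30 and -0.35 against the others. All 4 of its probe sets had separate groups, at -0.68 to -0.42.

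NOP58, the partner scaffold of NOP56, stood at 7.55, 7.03 and 7.42 on the controls and 6.69, 6.68 and 6.95 in manganese. The groups were separate, with manganese 3 just under control 2. The difference was -0.56 (SE 0.16, 95% interval -0.92 to -0.20, fold 1.47, limma adjusted p 0.263), from -0.77 and -0.64 against control 1 and control 3 to -0.26 against control 2. Its other probe set gave -0.61 with separate groups, but it was dim. That probe set stood at 4.63, 4.40 and 4.56 on the controls and 3.88, 4.07 and 3.82 in manganese. It passed the filter through the control arrays alone, so its separation is no independent support. RRP9, which belongs to the U3 particle that guides the first cuts of the precursor, overlapped, at 0.11. Thus both scaffolds were lower against every control while the methyltransferase was higher, though no difference between these genes was tested.

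**Figure D3:**
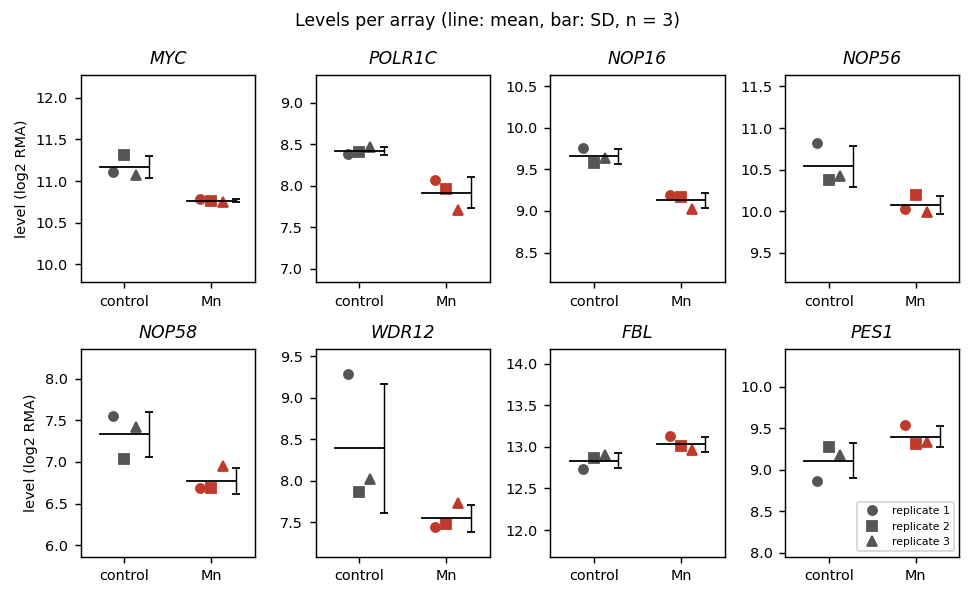
Levels on the log2 RMA scale of 8 members on each array (point shape: replicate number), with the group mean (line) and SD (bar, n = 3); every panel spans the same number of log2 units around its own centre. Treated arrays lie below all controls for MYC, POLR1C, NOP16, NOP56, NOP58 and WDR12 and above them for FBL and PES1.

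The small subunit factors were close to level. Their 8 tested members had a median of -0.02, from -0.26 to 0.03, with 6 negative values. Groups were separate and lower for 1 of the 8, beside 9.26% of all tested genes. That member was NAT10, which acetylates 18S rRNA. It stood at 9.05, 8.62 and 8.88 on the controls and 8.57, 8.62 and 8.58 in manganese, so manganese 2 and control 2 agree to the printed digits. The difference was -0.26 (SE 0.13, limma adjusted p 0.431), from -0.46 against control 1 to -0.04 against control 2. Its 3 probe sets gave -0.26 to -0.10, and groups were separate on 1.

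The other small subunit factors overlapped between the groups. WDR43 and UTP4, of the subcomplex that joins the precursor while it is made, were at -0.22 and 0.03. UTP20 and NOP14, of the early processome, were at -0.12 and 0.00. BYSL and RRP12, of late maturation and export, were at -0.01 and -0.02, and NOB1, the endonuclease that makes the end of 18S rRNA, was at 0.00. UTP15, below the filter, stood at 4.36, 3.90 and 4.17 on the controls and 3.87, 3.81 and 3.85 in manganese, a difference of -0.30 that was not tested.

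The large subunit factors had the lowest median of the groups with several members, -0.30 over 9 tested genes. For 6 of them the arrays were separate and lower and for 1 separate and higher, beside 9.26% and 10.5% of all genes. NOP16, a nucleolar factor of pre-large-subunit particles and a known MYC target, had the smallest p of all members. It stood at 9.75, 9.58 and 9.64 on the controls and 9.19, 9.16 and 9.03 in manganese. The gap between the groups was wider than the range within either. The difference was -0.53 (SE 0.11, 95% interval -0.78 to -0.28, fold 1.44), with a limma adjusted p of 0.142. It was -0.63, -0.45 and -0.51 against the 3 controls, and its other probe set above the filter gave -0.58 with separate groups.

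NOP2, a methyltransferase of 28S rRNA, stood at 7.01, 7.23 and 7.22 on the controls and 6.97, 6.82 and 6.74 in manganese. Here control 1 was the lowest control and lay just above manganese 1. The difference was -0.31 (SE 0.12, limma adjusted p 0.351), with -0.17 against control 1 and -0.38 against both others. Its 3 probe sets gave -0.36 to -0.31, and groups were separate on 1.

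PES1, BOP1 and WDR12 form one complex, PeBoW, needed to cut the precursor of the large subunit, and they differed in direction. PES1 was higher, with 8.87, 9.27 and 9.18 on the controls and 9.54, 9.31 and 9.33 in manganese. Its groups were separate, manganese 2 and control 2 being nearest. The difference was 0.29 (SE 0.14, 95% interval -0.03 to 0.61, limma adjusted p 0.426), and it was 0.53 against control 1 but 0.12 and 0.21 against the others.

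WDR12 was lower, with 9.28, 7.87 and 8.03 on the controls and 7.44, 7.48 and 7.74 in manganese. Control 1 stood more than 1 log2 unit above the other controls. The difference of -0.84 (SE 0.34, 95% interval -1.62 to -0.06, fold 1.79, limma adjusted p 0.363) was the largest of the set with all arrays, and it was -1.73 against control 1, -0.32 against control 2 and -0.47 against control 3. Without control 1 it was -0.40 (limma adjusted p 0.219), behind POLR1C at -0.52, NOP16 at -0.48, NOP58 at -0.45 and MYC at -0.43. As a mean of passing probe sets it was -0.548, behind NOP58 at -0.583, NOP16 at -0.556 and NOP56 at -0.555. The NOP58 mean includes its dim probe set that passed on the control arrays alone. A further probe set gave -0.87 and a dim one 0.06. BOP1 overlapped, at 0.13, with 0.56 against control 1 and -0.24 and 0.08 against the others.

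RRP1B, a nucleolar protein that binds pre-large-subunit particles, had the same array pattern as WDR12. It stood at 10.03, 8.99 and 9.14 on the controls and 8.85, 8.76 and 8.87 in manganese, with control 1 far above the rest. The difference was -0.56 (SE 0.25, limma adjusted p 0.403), made of -1.20, -0.16 and -0.32 against the 3 controls. Without control 1 it was -0.24 (limma adjusted p 0.334), and a dim probe set of the gene gave 0.13.

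MRTO4, a stand-in for the ribosomal stalk protein during assembly, stood at 8.91, 8.90 and 8.98 on the controls and 8.61, 8.86 and 8.44 in manganese. The controls were tight and manganese 2 was close to them. The difference was -0.30 (SE 0.13, limma adjusted p 0.391), and its dimmer probe set gave 0.07. RRS1, which brings the 5S particle into the large subunit, stood at 9.46, 9.57 and 9.38 on the controls and 9.29, 9.29 and 9.09 in manganese. Its groups were separate, and the difference was -0.25 (SE 0.11, limma adjusted p 0.408). PPAN, another assembly factor of the large subunit, overlapped, at 0.07.

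**Figure D4:**
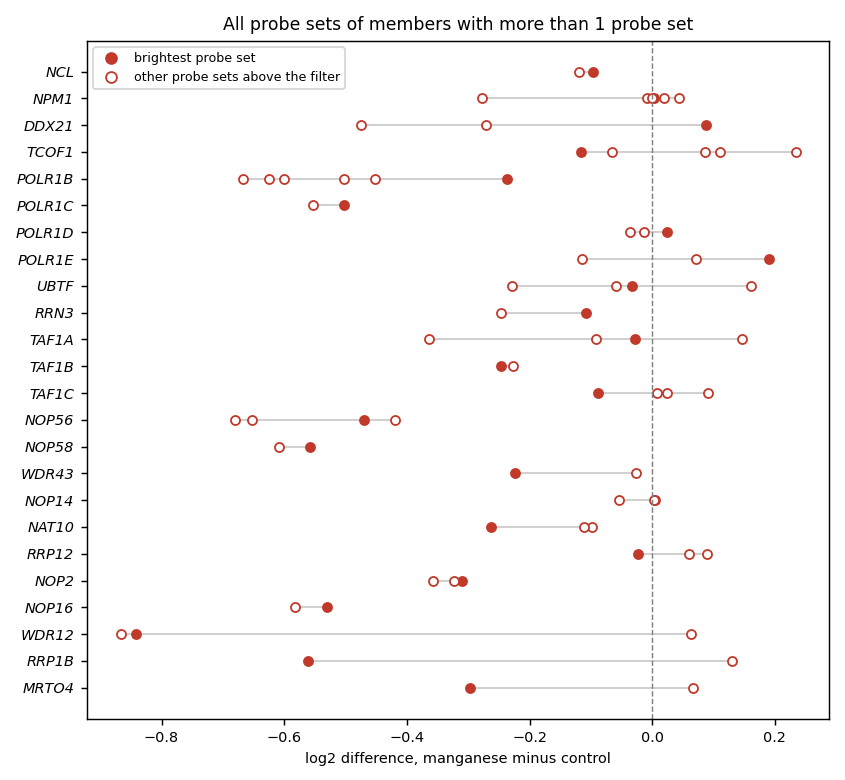
Log2 difference, manganese minus control, of every probe set above the filter for members that have more than 1, with the brightest filled. The probe sets of NOP56, NOP58, POLR1C and NOP16 lie together below 0, while those of RRP1B, WDR12, MRTO4 and DDX21 fall on both sides of it. The dimmer probe set of NOP58 passed the filter on the control arrays alone.

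Representative probe sets with an s_at or x_at name, which can read related transcripts, stood for NCL, NPM1, DDX21, POLR1B, POLR1E, UBTF, TAF1A, TAF1B, NOP56, NOP14, NOB1, NOP2, WDR12, RRP1B, MRTO4 and PPAN. The members whose passing probe sets, 2 or more, all had separate groups were POLR1C, NOP56, NOP58 and NOP16. For NOP58 the dimmer probe set passed the filter on the control arrays alone, so it adds no independent support.

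Members with and without the E-box were compared by their differences as a description. The 12 tested members with CACGTG had a median of 0.00, from -0.31 to 0.29. Of these, 6 were negative, NAT10, NOP2 and MRTO4 had separate groups that were lower, and FBL and PES1 had separate groups that were higher. The 16 tested members with a promoter entry and no CACGTG had a median of -0.10, from -0.84 to 0.07, with 13 negative values, 6 pairs of groups separate and lower and 0 separate and higher. The 8 members with no promoter entry had a median of -0.18, from -0.56 to 0.19, with 6 negative values, 4 pairs separate and lower and 0 separate and higher. Among all tested genes 9.26% were separate and lower and 10.5% separate and higher. Both members that were higher in manganese without overlap hold the E-box, and POLR1C, NOP56, NOP16 and WDR12 do not hold it in the promoter entry used.

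**Figure D5:**
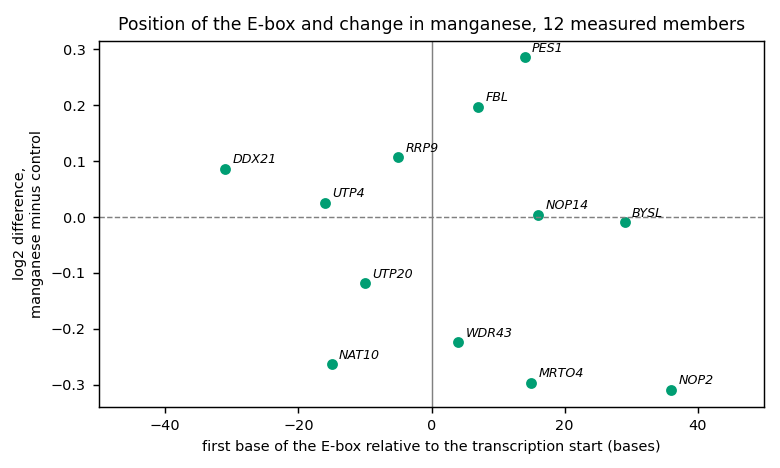
Position of the E-box nearest the transcription start (first base, counted with the start base included and no position 0) against the log2 difference, manganese minus control, for the 12 tested members that hold it. The points lie within 50 bases of the start and on both sides of 0.

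The rRNA itself was read only by the array's control probe sets, 3 for 18S and 3 for 28S rRNA. The 28S mean was 9.30, 9.38 and 9.23 on the controls and 9.57, 9.78 and 9.77 in manganese, higher on every treated array, by 0.40 over all controls and 0.33 against control 2. The middle 28S probe set moved most, from 10.24, 10.82 and 10.42 to 11.17, 11.39 and 11.44. It alone had separate groups, while the 5′ one differed by 0.32 and the 3′ one by 0.05, both with overlap. The 18S mean was 11.90, 11.58 and 11.05 on the controls and 11.64, 12.06 and 12.15 in manganese, which overlapped, with a difference of 0.44. Standard labelling for such arrays is primed from poly(A) tails, which mature rRNA lacks, and the spike-ins differed between the same arrays by 1.19, so the rRNA signals are given as array values. The part of labelling in them was not tested.

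The rest of the pathway was described by 9 further lists with 198 genes, of which 191 were measured and 182 tested. None passed the adjusted threshold in limma (0 of 182), and at an unadjusted p under 0.05 33 were lower and 8 higher, beside 6.85% and 5.97% of all tested genes. The median was -0.05, with 107 genes (58.8%) lower, beside 45.9% of all genes. Groups were separate and lower for 38 and separate and higher for 11, beside 9.26% and 10.5% of all genes, so the counts of higher genes did not exceed the share over all genes. The lists were chosen with earlier results of these data known.

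Of 8 other polymerase I subunits 2 had separate groups that were lower and 1 separate and higher. The shares over all tested genes were 9.26% and 10.5%. POLR2L and POLR2F, small subunits shared by all nuclear RNA polymerases, were at -0.58 (limma adjusted p 0.143) and -0.34, and POLR2K, also shared, was at 0.44. POLR2L stood at 10.88, 10.98 and 11.18 on the controls and 10.39, 10.52 and 10.38 in manganese, so its groups were well apart. Of 11 rDNA transcription cofactors 8 were lower. PHF8, a histone demethylase that acts on rDNA, was at -0.45 without overlap, KDM2A, a demethylase that represses rDNA, at -0.17, and TBP, the shared subunit of SL1, at -0.16, both with overlap. Of 8 box C/D assembly genes 4 were lower. SNU13, the remaining core protein of the particle, was at -0.21 with separate groups, and the chaperones PIH1D1 and NOPCHAP1 were at 0.21 (separate) and -0.20 (overlapping).

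Of 46 other small subunit genes 28 were lower, 5 of them at an unadjusted p under 0.05 against 3 higher. Among all tested genes 6.85% were lower and 5.97% higher at that limma p. EMG1, an 18S rRNA methyltransferase, was at -0.38, UTP11, a processome protein, at -0.53 and DCAF13 at 0.47, all with separate groups. Of 56 other large subunit genes 32 were lower, 14 of them at an unadjusted p under 0.05 against 3 higher. In that list 17 pairs of groups were separate and lower against 4 separate and higher. The shares over all tested genes were 9.26% and 10.5%. PUM3 was at -0.58 (limma adjusted p 0.188), MDN1, the large ATPase that strips assembly factors, at -0.76 and URB2 at -0.45. MDN1 was at -1.23 against control 1 and -0.34 against control 2, so its size depended on control 1. Of 22 precursor nucleases and exosome genes 12 were lower. RPP38 and POP5, of the RNase MRP and RNase P particles, were at -0.52 (limma adjusted p 0.170) and -0.59, and EXOSC1, an exosome subunit, was at -0.72, each with separate groups.

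Among the 13 partners and rivals of MYC 7 were lower, and 0 passed an unadjusted p of 0.05. MGA, a MAX partner that represses, was at -0.35, MXD3, another MAX partner, at 0.25, and MLX at -0.16, the last alone with separate groups. Against control 2 MGA was at 0.10 and MXD3 at -0.05, each opposite in sign to its values against control 1 and control 3. Of 15 RNA polymerase III genes 9 were lower. POLR3K, an enzyme subunit, was at -0.43, and GTF3C3 and GTF3C6, of the TFIIIC factor that marks tRNA genes, were at -0.93 and -0.35, all 3 with separate groups. GTF3C3 was at -1.71 against control 1 and -0.54 against control 2. The list of the 5S particle and its link to p53 held 3 tested genes. RPL11, a ribosomal protein that binds MDM2 when assembly stalls, was at -1.11 (limma adjusted p 0.188). It stood at 13.72, 12.66 and 13.17 on the controls and 11.83, 12.18 and 12.20 in manganese, with separate groups but controls spread over 1.06. RPL5, its partner, was at -0.02, and CDKN1A, a p53 target that halts the cell cycle, was at 0.45 with overlap (limma adjusted p 0.422).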

How the data were processed

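Total RNA (6 µg) from 6 samples was labelled with biotin and read on 1-colour Affymetrix arrays, per the labels. The authors deposited 1 table of RMA log2 values for 49395 probe sets. The submitters' processing notes name Affymetrix Expression Console, with no version. RMA subtracts background and quantile-normalizes the arrays together. Of these, 102 were array controls, 44988 carried 1 gene symbol in the platform annotation, 1832 several and 2473 none.

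Probe sets had to exceed the array's 40th percentile in 3 or more of the 6 samples, and the brightest of a gene's remaining ones stood for it. Manganese was compared with control in limma 3.58.1 (R 4.3.3; lmFit, eBayes, two-sided), with group as the only term and Benjamini-Hochberg adjustment over 13407 genes at 0.05. The scripts were tested on simulated arrays. Depth has no meaning for arrays; their number limits the precision. Full values are given for MYC, NCL, NPM1, FBL, POLR1A, POLR1B, POLR1C, POLR1D, UBTF and RRN3, for every member with separate groups, and by p up to 20 genes if not reached. Up to 3 genes of each further list are named by smallest p. The members and lists were chosen with earlier results of these data known. Alternatives changed the filter, variance model, array weights, array centring, probe set rule and replicate block, and left out each array; control 2 alone was added after the data were seen.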

Additional observations from a re-analysis of the deposited data

How the results depend on the processing

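Of 293 gene-level comparisons (21 members, 14 alternative settings), 268 kept their direction and side of the threshold, 14 reversed and 11 newly passed, all 11 with array weights. That setting called 12 members and 3945 of all genes, with weights from 0.15 for control 1 to 8.22 for control 3, and its estimate did not converge; the cause was not tested. It turned NCL to 0.053 and POLR1D to -0.092. The mean of passing probe sets turned NPM1 to -0.037, POLR1D to -0.0086 and TAF1C to 0.0085. Leaving out 1 array in turn, NCL ranged from -0.21 to 0.11, POLR1B from -0.39 to 0.0037, POLR1D from -0.12 to 0.11, NPM1 from -0.14 to 0.11 and UBTF from -0.093 to 0.0096. Members separate and higher numbered 2 to 4, those separate and lower 13 to 16. Against control 2 alone, where its spread is taken from the treated group, NCL was at 0.13, NPM1 at -0.070 and POLR1B at 0.061, 6 members were separate and higher and 18 separate and lower. A single control array has no spread, so separation is easier there. The share of all genes that separate was not worked out for control 2 alone or with an array left out. These counts of separate members therefore have no background to be judged against. The median over members stayed between -0.14 and -0.08 in every setting. With the replicate block 0 members and 6 of all genes passed, and the median was -0.10. Same-numbered arrays correlated at -0.30, 0.15 and -0.27 in their deviations, and the other pairs at -0.44 to 0.50. With 3 arrays in a group, these values cannot decide whether the numbers pair the samples. Over all genes limma called 0 without control 3 or without any 1 manganese array, 43 without control 2 and 22 without control 1. Outside array weights the smallest adjusted p of a member was 0.0592, for NOP58 without control 2.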
